A study of Mus musculus with 8 samples.

Results

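The genes described here are the protein-coding Hox genes of the 4 mouse clusters, taken as every row whose symbol is Hoxa, Hoxb, Hoxc or Hoxd followed by a paralog number. There were 39 such genes among the 52224 genes of the table: 11 of HoxA, 10 of HoxB, 9 of HoxC and 9 of HoxD. RNA was sequenced from sorted mouse bone marrow hematopoietic stem cells, which are the LSK cells (no lineage markers, with Sca-1 and Kit) that lack CD48 and carry CD150. There were 4 libraries of the genotype DekCon and 4 of DekTg. The labels do not spell out the genotype names, and the strain, age and sex of the mice, and any promoter or Cre behind either genotype, were not given in the sources used. Nothing in the labels says that the 4 libraries of a group came from separate mice. Each p-value thus measures the spread between these libraries, which can be technical. The study's subject is the chromatin protein DEK in stem cells and in Fanconi anemia.

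Hox genes encode homeodomain transcription factors that set position along the body axis of the embryo. In each cluster the genes lie in paralog order, with the low numbers at the anterior end and the high numbers at the posterior end, and genes of the same number in different clusters are paralogs. In blood, mainly HoxA and HoxB genes are known to be used: Hoxa9, Hoxa10, Hoxb4 and Hoxb5 are associated with stem cells and fall as cells mature. Hox proteins bind DNA together with cofactors of the TALE homeobox class (Meis, Pbx and Pknox proteins). MLL-type and Polycomb complexes keep the clusters active or silent.

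The mark of a Hox gene is the homeobox, a stretch of 180 bases that codes for the DNA-binding homeodomain. It was found in all 39 genes in the GENCODE M21 annotation of GRCm38, the build that mm10 names. Near-identical paralogs could share reads, so 2 homeoboxes are shown. The HoxC gene with the most reads, Hoxc13, is shown with its paralog Hoxa13, the HoxA gene with the fewest reads. Here capitals mark the bases that differ from Hoxc13.
Hoxc13: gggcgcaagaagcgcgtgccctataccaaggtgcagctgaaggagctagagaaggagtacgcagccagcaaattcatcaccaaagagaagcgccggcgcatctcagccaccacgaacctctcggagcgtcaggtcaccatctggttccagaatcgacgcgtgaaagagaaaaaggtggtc
Hoxa13: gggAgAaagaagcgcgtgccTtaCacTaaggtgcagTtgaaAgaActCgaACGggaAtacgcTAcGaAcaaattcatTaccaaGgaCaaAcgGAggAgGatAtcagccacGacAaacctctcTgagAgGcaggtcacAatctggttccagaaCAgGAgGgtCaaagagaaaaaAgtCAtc

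These coding exon sequences lie at chr15:102927210-102927389 (Hoxc13, plus strand) and chr6:52258928-52259107 (Hoxa13, minus strand), and were 77.2% identical. Over the 13 paralog groups, each homeobox was 71.7% to 93.9% identical to that of the member of its group with the highest count, and the longest shared runs were 10 to 33 bases. The read length is not given in the sources used here. A read of about that length or shorter, lying wholly inside such a run, could not be assigned to 1 paralog. In addition, 16 of the 39 genes share exon bases with another gene, and whether counting used strand is not given either.

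Recovered reads came to 2.53 to 4.10, in units of 1000000, per library, of which 464 to 884 single reads fell in Hox genes. Each deposited value is a read count over the size factor of its library, here a normalized read count. The values are not scaled for gene length. Dek was listed at 395 to 632 in DekCon and at 1862 to 2710 in DekTg, where its values are not whole reads. Of the 9 genes that mark the sort gate, such as Kit and Slamf1 (which encodes CD150), none was called and none was at 0. Libraries 1 and 4 of each group were closer to each other (chi-square per degree of freedom 1.58 in DekCon and 1.65 in DekTg) than the other pairs of a group (3.26 to 6.74). They still differed by more than counting noise and were kept as separate libraries. DekCon replicate 2 stood apart from the other 7 libraries for some markers. It was highest for all 6 megakaryocyte markers (summed value 9404, against 2014 to 4810 elsewhere). It was lowest for all 3 genes that mark cells outside the gate, among them Cd48 and Flt3 (summed value 329, against 596 to 1169). DekTg replicate 3 stood apart for others. It was highest for 6 of the 10 myeloid markers, among them S100a8 (4181, against 98.7 to 876 elsewhere). Hox values are therefore also given without DekCon replicate 2, and further on with each library left out in turn.

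Hox reads were few and unevenly spread. The values of all Hox genes together were 640 ± 55 normalized read counts for DekCon against 632 ± 71 for DekTg. Here and below ± gives the SD over n = 4 libraries of a group. No Hox gene was without a read, 22 had a read in all 8 libraries, and 10 had a mean of at least 10. Those 10 genes, Hoxa3, Hoxa5, Hoxa7, Hoxa9, Hoxa10, Hoxb1, Hoxb2, Hoxb4, Hoxb5 and Hoxc13, carried 84.2% of all Hox values. HoxA (on chromosome 6) held 52.4% of Hox values and HoxB (chr11:96194316-96368256) held 24.0%. HoxC (chr15:102921103-103036852) held 18.7% and HoxD (chr2:74668310-74765142) held 4.84%.

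In paralog groups 2, 7, 9 and 13, a single gene carried nearly all the reads. Hoxa9 made up 91.0% of group 9, Hoxa7 92.7% of group 7, Hoxb2 97.8% of group 2 and Hoxc13 97.7% of group 13. Group 6 was the most evenly divided, with 37.7% of its values in its leading gene, Hoxa6, but the whole group summed to 5.74 normalized read counts. Levels along HoxA were not graded by position. Hoxa3, Hoxa5, Hoxa7, Hoxa9 and Hoxa10 were high, while Hoxa4 and Hoxa6 between them had means of 1.08 and 2.16, and Hoxa11 and Hoxa13 beyond Hoxa10 had means of 1.15 and 0.56.

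To compare genes, the mean over all 8 libraries was divided by the exon length of the M21 gene model, giving normalized reads per kilobase of exon. On this scale Hoxc13 (32.0) and Hoxa9 (31.9) were level, followed by Hoxa10 (17.7), Hoxb5 (15.3) and Hoxb2 (15.1). Hoxb1 (11.96), Hoxa7 (11.2), Hoxa5 (8.94) and Hoxa3 (6.23) came next, and Hoxb8 was lowest at 0.037. Per kilobase of coding sequence, Hoxa9 ranked first and Hoxc13 second, at 219 and 80.0 normalized reads, because exon models differ in how much untranslated sequence they hold. The order of these neighbours therefore depends on the length used, and no source used here gives the gene models behind the authors' counts.

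**Figure D1:**
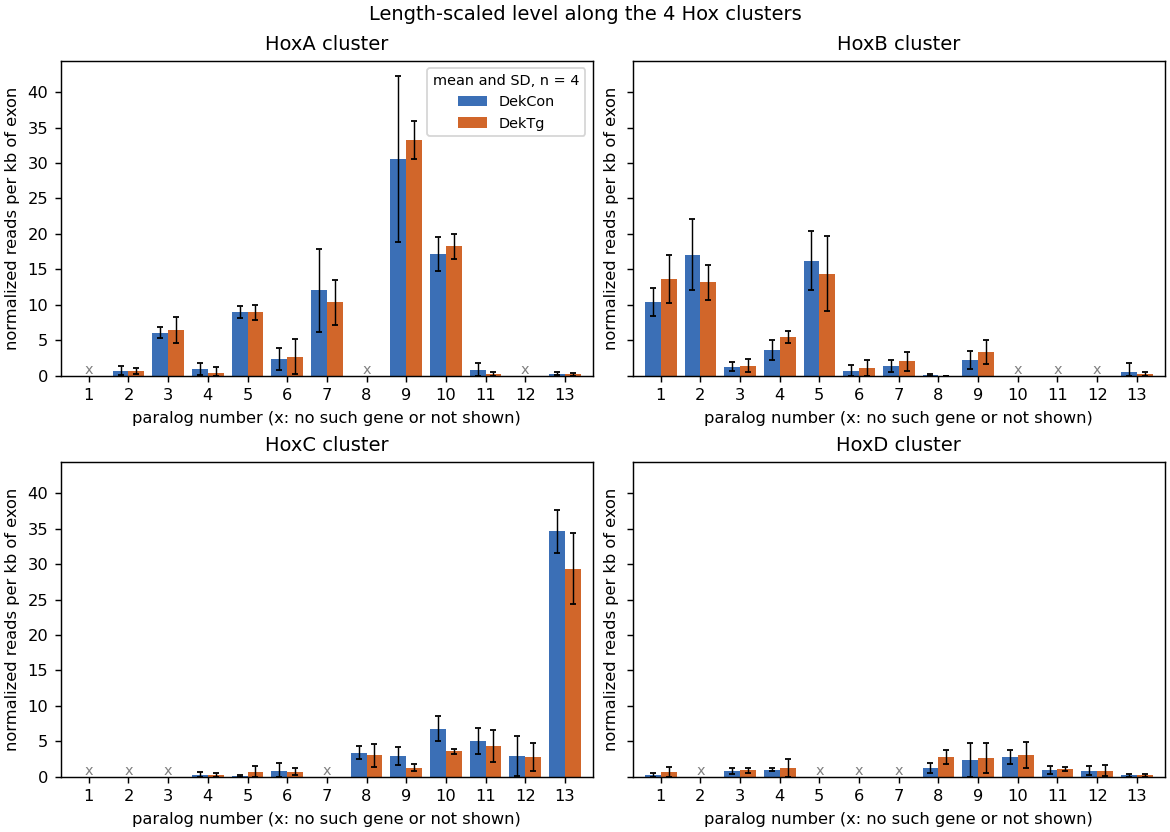
Normalized reads per kilobase of exon (vertical axis) for 38 of the 39 Hox genes by paralog number (horizontal axis), 1 panel per cluster. Bars are the mean of 4 DekCon or 4 DekTg libraries and error bars 1 SD, with the lower bar stopped at 0; the tallest bars are Hoxc13 and Hoxa9, with means over all libraries of 32.0 and 31.9.

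A scale for these low levels came from sensory receptor genes, which are known mainly from sensory cells. Whether blood cells use any of them was not tested. These receptor genes were chosen for this after values had been seen. The 326 vomeronasal receptor genes had a median of 4.35 and a 95th percentile of 16.5 normalized reads per kilobase of exon. Only Hoxc13, Hoxa9 and Hoxa10 lay above that percentile, and 27 of the 39 Hox genes lay at or below the median. The highest vomeronasal receptor gene, at 37.0, lay above every Hox gene, and 253 of the 326 had a read in all 8 libraries. Without scaling for length, the 1017 olfactory receptor genes had a median of 16.1 normalized read counts, and 925 had a read in all 8 libraries. Against 38 taste receptor genes, with a median of 2.56, 23 Hox genes lay at or below the median. These receptor genes differ from Hox genes in length and base composition, so they give a scale and no detection limit. At this depth a Hox gene in that range cannot be told apart from such genes by its level.

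The comparison of DekTg with DekCon asks whether Hox transcripts differ between stem cells of the genotypes. No Hox gene passed the test. Hoxa9, Hoxa10 and Hoxa5 had similar means in both groups, and the summed level of HoxA was 328 ± 91 in DekCon and 339 ± 30 in DekTg. Posterior HoxC genes summed to a lower mean in DekTg and central HoxD genes to a higher one, with no gene of either past the threshold. In bulk RNA, a smaller share of cells that express a gene and less RNA per cell cannot be told apart.

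Of the 39 Hox genes, 30 reached a value of 1 in at least 4 libraries and were tested with limma, with Benjamini-Hochberg adjustment over the 37414 genes tested. The other 9 (Hoxa4, Hoxa11, Hoxa13, Hoxb8, Hoxb13, Hoxc4, Hoxc5, Hoxd1 and Hoxd13) had 1 to 11 reads each over all libraries. None of the 30 was called at an adjusted p of 0.05, where 0.0347% of all genes tested were called (13 genes in either direction). The latter count was 22 without DekTg replicate 2 and 8 without the 6 genes whose values are not whole reads. The smallest limma adjusted p of a Hox gene was 0.711. At an unadjusted p of 0.05, limma picked 2 Hox genes, Hoxc10 and Hoxd8, against 6.93% of all genes tested. On the recovered reads edgeR also called 0 Hox genes, against 0.0241% of all genes tested at the same adjusted p of 0.05. At an unadjusted p of 0.05 edgeR picked 3 of the 30, and the share of all genes was not counted there. DESeq2 called 0 of the 27 Hox genes with an adjusted p (0 at an unadjusted p of 0.05), with a background of 0.0474%.

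With all libraries, directions were balanced among the tested Hox genes. The log2 fold change, DekTg minus DekCon on the scale log2(value + 1), was above 0 in 15 and below 0 in 15, against 50.6% above 0 among all genes tested. The median was 0.02 for Hox genes and 0.0057 for all genes tested. Without DekCon replicate 2 it was -0.07, with 11 of 30 above 0, and without DekTg replicate 2 it was 0.15, with 20 of 30 above 0. A log2 fold change beyond 0.5 in either direction was seen for 5 of 30 Hox genes (16.7%), against 20.3% of all genes tested. The libraries of the groups did not overlap for 1 Hox gene, Hoxc10, which was lower in DekTg. Among all genes tested, 3.97% did not overlap in either direction and 1.88% were lower in DekTg without overlap. The 95% intervals extended 0.35 to 0.72 to each side for the 10 genes with a mean of at least 10, and 0.72 to 1.52 for the 20 tested genes below that. These widths reflect the spread between the 4 libraries of a group as well as the counts.

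**Figure D2:**
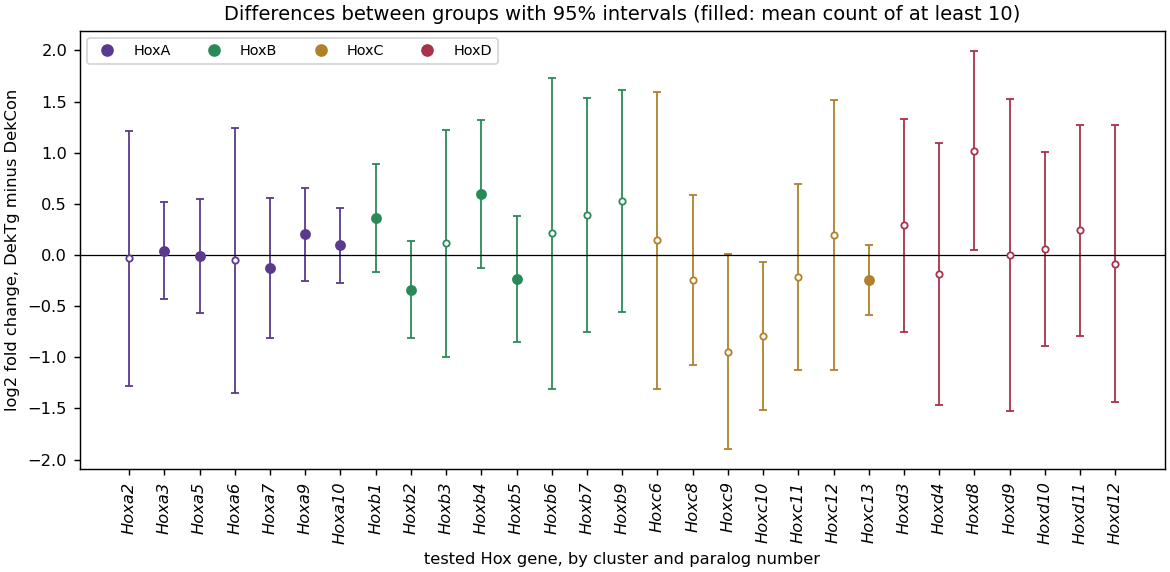
Log2 fold change, DekTg minus DekCon on the scale log2(value + 1) (vertical axis), of 29 of the 30 tested Hox genes in order of cluster and paralog number (horizontal axis), with 95% limma intervals. Filled points have a mean of at least 10 normalized read counts; the values run from -0.94 (Hoxc9) to 1.02 (Hoxd8), and none had an adjusted p below 0.711.

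HoxA is taken from its anterior end. Hoxa3, a gene of pharyngeal and neck development in the embryo (chr6:52169062-52213336, minus strand), had 38.0, 29.7, 41.5 and 37.0 normalized read counts in DekCon replicates 1 to 4. It had 54.4, 30.0, 37.8 and 31.5 in DekTg. The groups overlapped, with the highest value in DekTg replicate 1 and the lowest in DekCon replicate 2. In limma it had a log2 fold change of 0.04 (SE 0.22, adjusted p = 0.981). Of the exon bases of Hoxa3, 27.1% lie in other genes as well, among them the noncoding Hoxaas2 and Hoxaas3.

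Hoxa5 (chr6:52201754-52204587, minus strand), a gene of lung and axial development, had 19.0, 16.3, 15.1 and 17.0 in DekCon and 19.0, 15.6, 14.6 and 17.8 in DekTg. All 8 libraries lay in the same narrow range. It gave -0.01 as log2 fold change (SE 0.26, limma adjusted p = 0.995). Hoxa7 (chr6:52214491-52221854, minus strand) had 43.1, 17.2, 24.5 and 54.0 in DekCon and 39.6, 21.6, 22.3 and 35.7 in DekTg. In both groups replicates 1 and 4 were high and replicates 2 and 3 low, so the spread within groups exceeded the difference between them. Its log2 fold change of -0.13 had an SE of 0.32 and a limma adjusted p = 0.952.

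Hoxa9 (chr6:52223100-52231089, minus strand), which promotes stem cell expansion and is a known driver of myeloid leukemia, had the most reads of any Hox gene. It had 246, 95.7, 143 and 198 normalized read counts in DekCon and 188, 197, 193 and 164 in DekTg. The DekTg libraries lay within the span of the DekCon libraries, whose lowest value was that of replicate 2. The means were 171 ± 65 in DekCon and 185 ± 15 in DekTg, with a log2 fold change of 0.20 (SE 0.22, limma adjusted p = 0.862). Its variance within groups was 12.6 times that of counting alone. Markers moved with the lowest library: in DekCon replicate 2, 4 of the 9 sort gate genes were also at their lowest of all libraries, among them Hlf (161, against 253 to 422 elsewhere). Their part in the Hoxa9 value was not tested.

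Hoxa10 (chr6:52231197-52240854, minus strand), another posterior gene active in blood progenitors, had 65.9, 58.4, 50.9 and 48.6 in DekCon and 65.9, 52.9, 62.1 and 57.7 in DekTg. The groups overlapped, and its variance was 0.81 times that of counting alone. In limma it had a log2 fold change of 0.10 (SE 0.17, adjusted p = 0.928). The direction of some HoxA genes rested on single libraries. Leaving out DekCon replicate 2 gave -0.046 for Hoxa9 and -0.052 for Hoxa3. Without DekTg replicate 1 it was -0.13 for Hoxa3, and without DekCon replicate 4 it was 0.12 for Hoxa7. Hoxa5 lay at 0.047 and 0.051 without DekCon replicate 1 and without DekTg replicate 3.

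The other HoxA genes were scarce. Of these, Hoxa2, Hoxa4, Hoxa6, Hoxa11 and Hoxa13 had means of 0.56 to 2.16 over all libraries. Summed by position, the HoxA posterior genes (paralogs 9 to 13) reached 229 ± 67 and 246 ± 17 normalized read counts in DekCon and DekTg. The central genes (4 to 8) reached 55.1 ± 19 and 49.5 ± 14. Both sums overlapped between the groups.

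**Figure D3:**
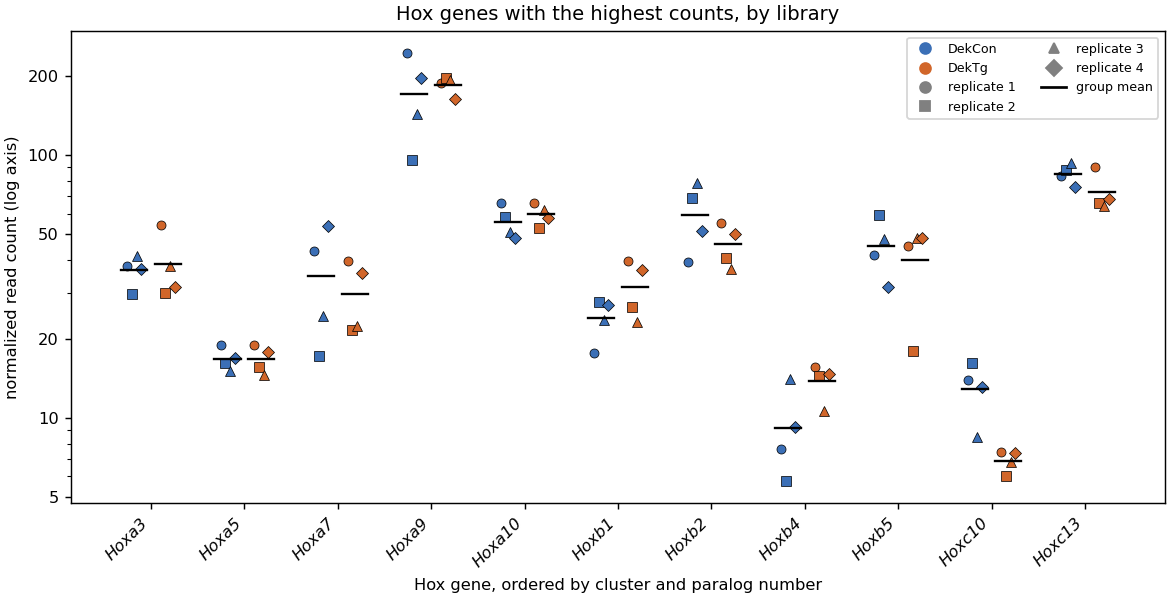
Normalized read count (vertical axis, log scale) in each library for the 10 Hox genes with a mean of at least 10 and for Hoxc10 (horizontal axis, by cluster and paralog number). Marker shapes give the replicate and bars the group mean; Hoxa9 is highest in every library, and Hoxc10 is the only gene shown whose groups do not overlap.

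In HoxB, the anterior Hoxb1 (chr11:96365752-96368256, plus strand), a hindbrain gene in the embryo, had 17.7, 27.8, 23.6 and 27.0 in DekCon and 39.6, 26.4, 23.3 and 36.7 in DekTg. DekTg replicates 1 and 4 lay above all DekCon libraries and the other two within them. It gave 0.36 as log2 fold change (SE 0.25, limma adjusted p = 0.790). Hoxb2 (chr11:96350525-96354012, plus strand), whose exons overlap the noncoding Hoxb3os, had 39.3, 68.9, 78.2 and 51.7 in DekCon. It had 55.2, 40.8, 36.9 and 50.4 in DekTg. DekCon replicates 2 and 3 were the highest, and the groups overlapped. Its log2 fold change of -0.34 had an SE of 0.22 and a limma adjusted p = 0.785.

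Hoxb4 (chr11:96318267-96321638, plus strand) is known to expand stem cells when overexpressed. It had 7.61, 5.74, 14.1 and 9.26 in DekCon and 15.7, 14.4, 10.7 and 14.7 in DekTg. DekCon replicate 3 reached the DekTg range, and the other DekCon libraries lay below it. It had a log2 fold change of 0.60 with SE 0.34 (limma adjusted p = 0.755), the largest positive value among the 10 Hox genes with a mean of at least 10, and it did not pass the test.

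Hoxb5 (chr11:96303336-96306121, plus strand), used in mice as a marker of long-term stem cells, had 41.8, 59.3, 48.1 and 31.6 in DekCon and 45.3, 18.02, 48.5 and 48.3 in DekTg. DekTg replicate 2 was the lowest of all libraries, and the other 3 DekTg libraries lay within the DekCon range. It had a log2 fold change of -0.24 with SE 0.29 (limma adjusted p = 0.886) and 0.10 without DekTg replicate 2. The remaining HoxB genes had means of 0.096 (Hoxb8) to 7.13 (Hoxb9). HoxB summed to 154 ± 32 in DekCon and 151 ± 27 in DekTg. Of the 8 HoxB genes tested, 6 had a log2 fold change above 0, and none passed.

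HoxC reads came mostly from its posterior end. Hoxc13 (chr15:102921103-102928814, plus strand), a gene known for hair and nail formation, had 83.7, 88.0, 93.3 and 75.6 in DekCon and 90.7, 66.1, 64.0 and 68.2 in DekTg. DekTg replicate 1 lay among the DekCon libraries and the other 3 DekTg libraries below all of them. In limma it had a log2 fold change of -0.24 (SE 0.16, adjusted p = 0.787). Its variance was 1.33 times that of counting alone.

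Hoxc10 (chr15:102966796-102971893, plus strand), a gene of the lower spinal cord and hindlimb, had a mean of 9.92 and is named because it was the only Hox gene whose groups did not overlap. It had 13.9, 16.3, 8.48 and 13.1 in DekCon and 7.42, 6.01, 6.79 and 7.35 in DekTg. All 4 DekTg values lay below the lowest DekCon value, that of replicate 3. It had a log2 fold change of -0.79 with SE 0.34 (limma adjusted p = 0.711), which did not pass. Of its exon bases, 8.70% also lie in the M21 model of Hoxc5.

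Hoxc9 had the most negative log2 fold change, -0.94 (SE 0.45, limma adjusted p = 0.717), with 3.80, 10.5, 8.48 and 5.40 in DekCon and 4.94, 2.40, 2.91 and 2.1 in DekTg. DekTg replicate 1 overlapped the DekCon range. Of the 5 posterior HoxC genes tested, 4 had a log2 fold change below 0. Their sum was 118 ± 10 in DekCon (108 to 132) and 94.0 ± 12 in DekTg (81.7 to 110), so the groups overlapped at their edges. HoxC as a whole summed to 131 ± 9.4 (121 to 144) and 107 ± 16 (90.1 to 129). The central Hoxc8 and the posterior Hoxc11 had means of 9.09 and 9.44, and Hoxc4, Hoxc5, Hoxc6 and Hoxc12 had means of 0.72 to 2.96.

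No HoxD gene reached a mean of 10. Hoxd8 (chr2:74704615-74707933, plus strand) had 1.27, 2.87, 5.65 and 3.86 in DekCon and 5.77, 4.80, 10.7 and 9.45 in DekTg. The groups overlapped only in that DekCon replicate 3 lay above DekTg replicate 2. It had a log2 fold change of 1.02 with SE 0.46 (limma adjusted p = 0.711), the largest of all Hox genes, and rested on 46 reads over all libraries. The central HoxD genes, Hoxd4 and Hoxd8, together gave 5.07 to 8.48 in DekCon and 9.45 to 13.2 in DekTg. These sums did not overlap, while those of every other cluster region with Hox genes did. The 2 genes went opposite ways in limma, with a log2 fold change of -0.18 for Hoxd4. Of the exon bases of Hoxd4, 52.3% lie in other genes as well, among them Hoxd3. Hoxd4 alone averaged 2.95 ± 0.62 in DekCon and 3.62 ± 3.6 in DekTg, with no read in DekTg replicate 4 and overlapping groups. HoxD as a whole summed to 27.0 ± 4.0 (22.8 to 32.5) in DekCon and 34.7 ± 6.5 (25.2 to 39.8) in DekTg. The remaining HoxD genes had means of 0.44 (Hoxd13) to 5.37 (Hoxd9).

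**Figure D4:**
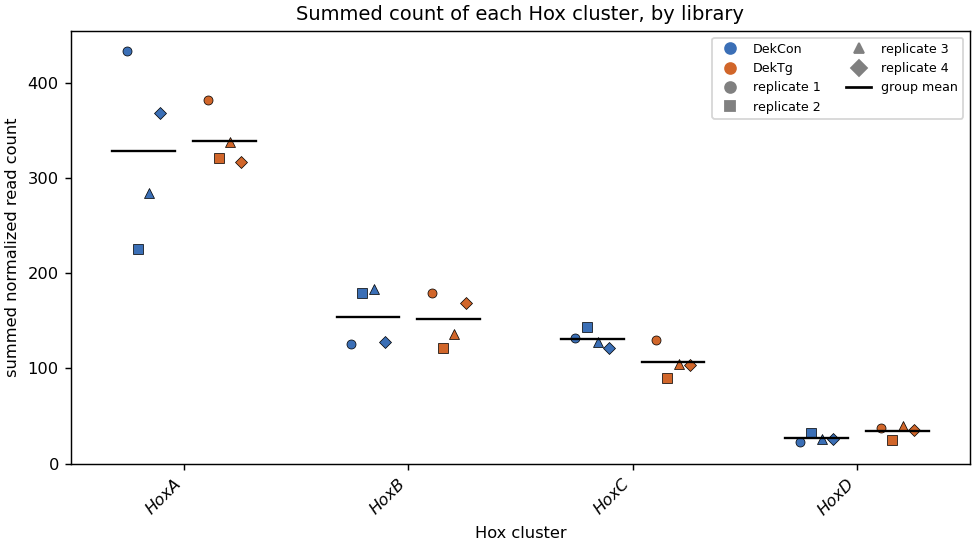
Summed normalized read count of each Hox cluster (vertical axis, from 0) in each library, by cluster (horizontal axis); marker shapes give the replicate and bars the group mean. All 4 clusters overlap between the groups: HoxA has means of 328 and 339, HoxB 154 and 151, HoxC 131 and 107, and HoxD 27.0 and 34.7 in DekCon and DekTg.

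Among the TALE cofactors, Meis1 was abundant. None of the 9 genes tested was called (background 0.0347%), 2 had a log2 fold change above 0, and the median was -0.29, against 0.0057 for all genes tested. Under quantile normalization 3 were above 0 and the median was -0.18, and without DekTg replicate 3 the median was -0.17. Meis1, the cofactor tied to Hoxa9 in leukemia and to stem cell maintenance, is named because of its level. It had 2369, 2432, 2084 and 2285 normalized read counts in DekCon and 1690, 2159, 1883 and 1782 in DekTg. DekTg replicate 2 overlapped the DekCon range. It gave -0.29 as log2 fold change (SE 0.12, limma adjusted p = 0.711).

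Pbx2, which encodes a homeodomain partner of Hox proteins, had 10.1, 14.4, 13.2 and 17.0 in DekCon and 8.24, 8.41, 2.91 and 3.15 in DekTg. The groups did not overlap, as for 3.97% of all genes tested. It had a log2 fold change of -1.24 with SE 0.40 (limma adjusted p = 0.711), which did not pass.

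**Figure D5:**
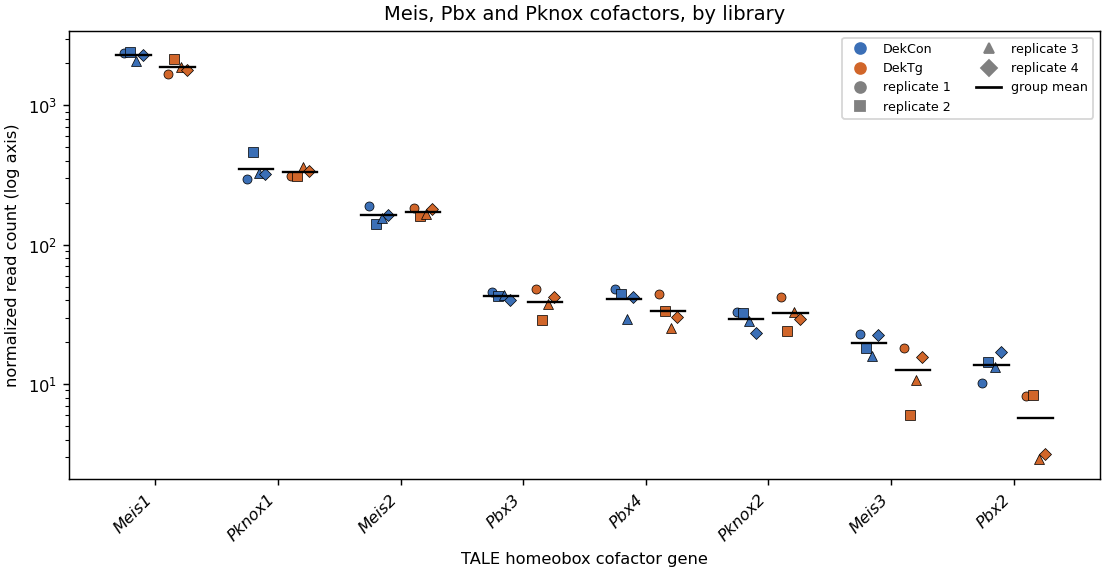
Normalized read count (vertical axis, log scale) of 8 of the 9 TALE cofactor genes in each library (horizontal axis, by DekCon mean); marker shapes give the replicate and bars the group mean. Meis1 is the highest, with no value under 1690, and Pbx2 is the only gene shown whose groups do not overlap.

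Of 42 genes for known regulators of Hox clusters (MLL and Polycomb subunits, Cdx and retinoic acid receptor genes and others), none was called (background 0.0347%). A log2 fold change above 0 was seen for 9 of them, and the median was -0.11. Under quantile normalization 15 were above 0 and the median was -0.06. Ell, which encodes an elongation factor joined to MLL in leukemia, had the smallest p, with 110, 150, 124 and 133 in DekCon and 98.9, 63.7, 73.8 and 95.5 in DekTg. All DekTg libraries lay below all DekCon libraries (log2 fold change -0.65, SE 0.17, limma adjusted p = 0.639). Jarid2, a Polycomb partner, had 640, 887, 626 and 584 in DekCon and 443, 513, 514 and 449 in DekTg, again without overlap. In all, 7 of the 42 regulators were lower in DekTg without overlap (Hcfc1, Ell, Ezh2, Jarid2, Kdm6b, Rara and Ncl), against 1.88% of all genes tested, and none of them passed. For Jarid2, the log2 fold change of -0.50 had an SE of 0.14 and a limma adjusted p = 0.658.

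Summed over these regulators, the values were 8762 to 10570 in DekCon and 7798 to 8566 in DekTg. In units of 1000000, the normalized read counts of all genes together were 3.08 to 3.52 in DekCon and 2.96 to 3.17 in DekTg. Kmt2a, which encodes the MLL1 methyltransferase that maintains Hox transcription, is named because of that role, and averaged 449 ± 55 in DekCon and 416 ± 52 in DekTg.

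Of 12 genes that flank the clusters, none was called (background 0.0347%), 6 had a log2 fold change above 0, and the median was -0.03 (-0.056 to 0.068 with each library left out in turn). Cbx5, the heterochromatin protein gene near HoxC, had 961, 1569, 956 and 933 in DekCon and 647, 1017, 884 and 690 in DekTg. DekTg replicate 2 overlapped the DekCon range (log2 fold change -0.44, SE 0.18, limma adjusted p = 0.711). Evx2, a homeobox gene beside HoxD, had 17.7, 27.8, 15.1 and 14.7 in DekCon and 26.4, 25.2, 28.1 and 21 in DekTg. DekCon replicate 2 lay among the DekTg libraries (log2 fold change 0.44, SE 0.27, limma adjusted p = 0.769).

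Of 16 noncoding genes inside the clusters, 10 were tested, none was called (background 0.0347%) and 5 had a log2 fold change above 0. The other 6, the miRNA genes Mir10a, Mir10b, Mir196a-1, Mir196a-2, Mir196b and Mir615, were at 0 in all 8 libraries; per the labels mRNA was reverse-transcribed, so this says nothing of mature miRNAs. Hoxaas2, the most abundant of the noncoding genes, averaged 37.7 ± 7.3 in DekCon and 32.0 ± 3.6 in DekTg. Hottip, transcribed from the posterior end of HoxA, averaged 31.2 ± 13 and 24.1 ± 8.0, with a log2 fold change of -0.35 (limma adjusted p = 0.830). Hoxb5os averaged 1.53 ± 1.9 and 2.53 ± 0.66 (log2 fold change 0.80, limma adjusted p = 0.810).

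Markers of other cell types moved with the groups beside these Hox values. Of 11 B and plasma cell markers, 2 were called, Igkc and Jchain, both higher in DekTg, against 0.0347% called among all genes tested. The list summed to 530 to 1330 normalized read counts in DekCon and 4647 to 5463 in DekTg. Of 9 erythroid markers, 3 were called, the globin genes Hba-a1, Hba-a2 and Hbb-bs, all higher in DekTg (background 0.0347%), with list sums of 369 to 1030 in DekCon and 643 to 799 in DekTg. Other erythroid markers had log2 fold changes below 0, namely Gata1 (-0.78, lower without overlap), Klf1 (-0.89) and Epor (-1.06), and none of these 3 passed. The sums of the myeloid markers (4767 to 11420 and 3025 to 13230) and megakaryocyte markers (2625 to 9404 and 2014 to 3350) overlapped, and no gene of these lists was called (background 0.0347%). All 6 megakaryocyte markers nevertheless had log2 fold changes below 0, with a median of -0.80 (-0.46 without DekCon replicate 2). Of these 6, Itga2b (-0.83) and Gp5 (-1.14) were lower in DekTg without overlap, against 1.88% of all genes tested. The mast cell and basophil (209 to 236 and 196 to 304), T and NK cell (534 to 925 and 427 to 620) and stromal and endothelial sums (589 to 787 and 675 to 803) overlapped too, with no gene called. Of the 11 B and plasma cell markers 5 were higher in DekTg without overlap, and of the 9 erythroid markers 4 were higher and 1 lower. The myeloid list and the mast cell and basophil list each held 1 gene lower without overlap. Among all genes tested, 3.97% did not overlap in either direction. No marker of these lists was at 0 in all libraries. Their part in the Hox values was not tested.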

How the data were processed

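Bulk RNA of sorted hematopoietic stem cells was reverse-transcribed, amplified by Geo-seq and made into libraries by tagmentation, per the labels. The submitters' processing notes name mm10, HTSeq, Cufflinks 2.1.1, Bowtie 0.12.9 and DESeq2, without their roles. The deposited signal values are called FPKM but are whole multiples of 1 step per library for 99.99% of values (tolerance 0.001 reads). These steps match DESeq2 size factors, so the authors' values were read as gene counts divided by 1 size factor. The test was planned with FPKM assumed and was kept, with its filter at a value of 1. In these values 1 read is worth 0.77 to 1.27, so the filter asked for more reads in some libraries than in others. Genes with a value of at least 1 in at least 4 libraries were compared by limma 3.58.1 in R 4.3.3 (trend on, log2(value + 1), no covariates), two-sided, threshold 0.05, tested on simulated data. edgeR 4.0.16 (quasi-likelihood) and DESeq2 1.42.0 were run on the recovered reads. Coordinates and exon lengths are from GENCODE M21 (GRCm38), which holds all 39 Hox genes but not 3917 of the table's 52224 symbols. Hox genes with a mean of at least 10 are given by library and the rest by range. Genes of each list were named when called or, with none called, as the 2 of smallest unadjusted p. Meis1, Kmt2a, Hoxaas2, Hoxc9, Hoxc10 and Hoxd8 lie outside this rule. So do the regulators Hcfc1, Ezh2, Kdm6b, Rara and Ncl, named for groups that did not overlap. Markers named to describe libraries or lists, among them Kit, Cd48, Hlf, S100a8, Mpo, Gata1, Klf1 and Epor, were picked after values had been seen. For some marker lists no gene is named. The members and lists were chosen with earlier results of these data known. Without molecular identifiers, amplified reads are not independent molecules. Alternatives changed the pseudocount, the filter, the scaling or the limma options, added a replicate block, dropped each library or averaged libraries 1 and 4. Dropping the 6 genes with values that are not whole was chosen after seeing the data. Values of some single genes and sequences are not reported here; counts over lists include those genes.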

Additional observations from a re-analysis of the deposited data

Results flagged for a closer look

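In 2 of 30 groups of 4 libraries examined, 1 library lay farther from the other 3 than Dixon's 95% critical gap; chance gives about 1 in 20. Hoxb5 was at 18.02 normalized read counts in DekTg replicate 2, against 45.3 to 48.5 in the other DekTg libraries. Hoxc13 was at 90.7 in DekTg replicate 1, against 64.0 to 68.2 in the others.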

How the results depend on the processing

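Under all 21 alternatives 0 Hox genes were called, with smallest adjusted p-values of 0.531 to 0.9998 by limma, edgeR or DESeq2. The number of all genes called, 13, became 4 with limma without a trend and 8 without the 6 genes that are not whole reads. Leaving out 1 library gave 13 to 22, the latter without DekTg replicate 2. The Hox median log2 fold change lay between -0.08 and 0.15. The log2 ratio of summed levels lay between -0.09 and 0.21 for HoxA (0.05 with all libraries) and between -0.18 and 0.07 for HoxB (-0.02). Of 219 alternative values for 11 single Hox genes, none passed the threshold, and 12 in 5 genes turned direction. With each library left out in turn, Hoxa3 ran from -0.13 to 0.14, Hoxa5 from -0.069 to 0.051, Hoxa7 from -0.41 to 0.12, Hoxa9 from -0.046 to 0.41 and Hoxb5 from -0.39 to 0.10. Hoxa5 was at 0.010 with edgeR and 0.0035 with DESeq2. Per kilobase of coding sequence in place of exon, the ranks became Hoxa9 1, Hoxc13 2, Hoxb5 3, Hoxb2 4, Hoxa10 5, Hoxa7 6, Hoxb1 7, Hoxa3 8, Hoxa5 9 and Hoxb4 10. The causes were not tested. Over all genes tested, deviations from the group mean correlated at -0.0028 to 0.02 between DekCon and DekTg libraries of the same number. Many of these genes have few reads, so this cannot exclude that the numbers pair the libraries. Some genes set replicates 1 and 4 apart from 2 and 3 in both groups, such as Hoxa7 and Mpo. Mpo had 1677, 6147, 5441 and 1619 in DekCon and 1125, 1993, 2897 and 1139 in DekTg. Itga2b had this split in DekCon (1225, 3859, 1664 and 1240) and not in DekTg (1080, 724, 1087 and 1137). With a replicate block 15 genes were called in all and 0 Hox genes, with a smallest adjusted p of 0.672. The 29 Hox genes with a mean under 10 rest on few reads; how far depth, rather than the number of libraries, sets their intervals was not tested.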

Other observations

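Across the 8 libraries, the 10 Hox genes with a mean of at least 10 formed 45 pairs. No pair had an adjusted p below 0.05 (exact permutation test, smallest adjusted p = 0.835 for Pearson's r and 0.692 for Spearman's rho). Correlations were taken on log2(value + 1). By Pearson's r, Hoxa9 and Hoxb2 ran most opposite, with r = -0.76 (exact permutation p = 0.0209, adjusted p = 0.835) and rho = -0.69 (p = 0.0694, adjusted p = 0.994). By Spearman's rho, Hoxa9 and Hoxb5 did, with rho = -0.74 (exact permutation p = 0.0458, adjusted p = 0.994) and r = -0.50 (p = 0.205, adjusted p = 0.908). For Hoxa9 and Hoxb2, without the 2 libraries farthest from the Hoxa9 median on that log scale, DekCon replicates 2 and 3, r was -0.51. Libraries 1 and 4 of each group resemble each other, and the 8 points were treated as independent.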
